A study of Mus musculus with 8 samples.

Results

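CA2 pyramidal cells were studied as the nuclei that the authors' deposited annotation assigns to the cell type CA2 in single nucleus RNAseq (snRNAseq) of adult mouse hippocampus, which are 415 of 29425 nuclei. Both hippocampi of 1 mouse gave 1 library. There were 2 mutant mice, Wls fl/-;Gfap-Cre, and 2 control mice, Wls fl/+;Gfap-Cre, all 12 weeks old and male by the labels. Separate bulk RNAseq libraries, 2 of each genotype, each came from both hippocampi of 1 mouse, also 12 weeks old and male by the labels. Wls encodes Wntless, the carrier that Wnt proteins need to leave the cell. Gfap-Cre acts in cortical neuroglial progenitors and inactivates the floxed allele there, so that the recombined cells of a mutant have no functional copy while those of a control keep 1. Both genotypes carry Gfap-Cre and a floxed allele, so neither group is free of Cre. Mossy fibres of dentate granule cells (DGCs) contact CA3 and in part CA2, and the nuclei assigned to DGCs numbered 90 and 463 in mutant replicates 1 and 2 and 2336 and 2007 in control replicates 1 and 2.

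CA2 is the short pyramidal field between CA3 and CA1. Its cells receive direct input from entorhinal cortex, are known for weak long-term potentiation at their apical inputs from CA3, and are required for social recognition memory. They are recognised by a set of transcripts for signalling and extracellular matrix proteins, among them Rgs14, a regulator of G protein signalling that restrains potentiation, Amigo2, a leucine-rich repeat adhesion protein, Col11a1, a fibrillar collagen chain, and Stxbp5l, a SNARE-binding protein that restrains vesicle release.

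The CA2 nuclei numbered 65 and 166 in mutant replicates 1 and 2 and 101 and 83 in control replicates 1 and 2. Their median depths were 9706, 12954, 10060 and 16520 UMIs (unique molecules counted) in the same order. UMIs were summed over the CA2 nuclei of each mouse, which gave 619205, 2321102, 1034747 and 1466241 UMIs, and levels below are CPM, the UMIs of a gene per 1000000 UMIs of those sums. The mouse is the replicate, with n = 2 per genotype, and an exact permutation test of a single value with 2 mice against 2 cannot go below p = 0.33. Of all libraries' nuclei, 174 carried a cell barcode that another library also used, and 2 of them were CA2 nuclei.

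The label was checked against markers. The 4 CA2 markers summed to 2804 and 2487 CPM in CA2 nuclei of the mutants and 2999 and 2324 CPM in those of the controls, against 965, 741, 912 and 715 CPM in CA3 nuclei of the same mice. Stxbp5l had a UMI in all 415 CA2 nuclei, but also in 96.0% to 98.8% of CA3 nuclei, so that its detection alone does not mark CA2. With nuclei thinned to 1500 UMIs it was found in 89.1% to 90.8% of CA2 nuclei, 52.8% to 68.0% of CA3 nuclei and 57.0% to 62.8% of CA1 nuclei. Slc17a7, the vesicular glutamate transporter of excitatory cells in general, had a UMI in 399 of 415 CA2 nuclei (96.1%). The counts of 393 of the 415 nuclei were likelier under the summed control CA2 profile than under that of any other deposited type, and for 390 the profile of CA3 was the best of the others. These 393 were 61 of 65, 153 of 166, 100 of 101 and 79 of 83 nuclei in mutant replicates 1 and 2 and control replicates 1 and 2. The type was made by clustering the same nuclei, and the profile was summed from control nuclei. The count of 393 is therefore no independent check of the label, and mutants and controls were not scored on equal terms. Levels of marker genes in CA2 relative to other types are likewise given as a description, with no test.

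Markers of the neighbouring pyramidal types were well represented in CA2 nuclei. The 10 listed CA3 markers summed to 1168 and 1240 CPM in the mutants and 803 and 1055 CPM in the controls, with 1, 0, 1 and 1 at 0, against 1858 to 2365 CPM in CA3 nuclei. Both mutants were above both controls, and Grik4, described below, held the larger part of the sum in each mutant. The CA1 markers in the files summed to 370 and 527 CPM in the mutants and 309 and 451 CPM in the controls, which overlapped, with none at 0, against 2751 to 3255 CPM in CA1 nuclei. The part of CA3 or CA1 transcripts in the differences below was not tested.

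Markers of other cells had lower sums. Over the 10 listed DGC markers the sum in CA2 nuclei was 90.4 and 140.0 CPM in the mutants and 135 and 243 CPM in the controls, with 5, 1, 2 and 0 of the 10 at 0 in that order of mice. For 10 inhibitory neuron markers the sum lay between 57.0 and 129 CPM, and 3, 0, 2 and 1 were at 0. The 8 choroid plexus markers summed to 77.5 and 148 CPM in the mutants and 55.1 and 51.2 CPM in the controls, with 3, 1, 3 and 3 at 0 and Otx2 at 0 throughout. Sums of astrocyte, oligodendrocyte, precursor and microglial markers each overlapped between the genotypes, as did those of mossy cell markers, and the sum of the endothelial and meningeal markers did not pass 16.8 CPM.

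Wls itself was too low in CA2 nuclei to compare. It had 3 and 9 UMIs in the mutants and 3 and 7 in the controls, and did not pass the filter on low counts. Over all nuclei it had 183 and 897 UMIs in the mutants and 805 and 1686 in the controls, out of 26307081, 76486132, 38980264 and 61559052 UMIs in total. The part of the gene (chr3:159839672-159938664, mm10) that Cre removes is not given in the sources used here, so that a UMI does not show an intact copy.

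The share of CA2 among all nuclei did not differ detectably between genotypes given the spread between mice. It was 1.23% and 1.59% in mutant replicates 1 and 2 (exact 95% binomial intervals 0.947 to 1.56% and 1.36 to 1.85%) and 1.56% and 1.15% in control replicates 1 and 2 (1.27 to 1.89% and 0.920 to 1.43%), so the groups overlapped. The log2 fold change of mutant over control was 0.05 (SE 0.57, edgeR's quasi-likelihood test, FDR = 0.931). DGC nuclei differed by a log2 fold change of -3.38 (FDR = 0.0916), and they set part of the total. With DGC nuclei left out of the total, CA2 made up 1.25% and 1.66% of nuclei in the mutants and 2.44% and 1.60% in the controls, and the log2 fold change was -0.47 (FDR = 0.773). Of CA2 and CA3 nuclei together, CA2 made up 15.1% and 13.3% in the mutants and 17.8% and 12.9% in the controls.

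The 4 markers and 12 further transcripts known for CA2 were then followed across the deposited types. Among types with at least 50 nuclei, CA2 had the highest CPM for 13 of the 16 in the controls (17 types) and for 11 in the mutants (20 types). Stxbp5l was the most abundant in UMIs, at 2288 and 2140 CPM in the mutants and 2621 and 1920 CPM in the controls, against 822 CPM in the next type of the controls, excitatory neurons 13. Avpr1b, the vasopressin receptor through which CA2 acts in social behaviour, was low but nearly absent elsewhere. It stood at 14.5 and 14.2 CPM in the mutants and 20.3 and 17.1 CPM in the controls, whereas the next type of the controls, CA3, averaged 0.620 CPM. Cacng5, an auxiliary subunit of AMPA receptors, reached 58.6 CPM in control CA2 nuclei, 3.69 times the level of the next type. Pcp4, Sostdc1 and Actn2 were not highest in CA2 in either genotype. Pcp4, a calmodulin-binding protein often used to outline CA2, averaged 38.2 CPM in control CA2 nuclei and ranked 8 of 17 types. Map3k15, a kinase, and Ntf3, which encodes neurotrophin-3, were highest in CA2 in the controls only by this ranking, with no test of the difference between genotypes in rank. In the mutants Map3k15 was second to the type labelled CP, at 34.8 against 49.0 CPM. That type had 0 and 184 nuclei in the mutants. With 9 and 0 nuclei it was not ranked in the controls.

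**Figure D1:**
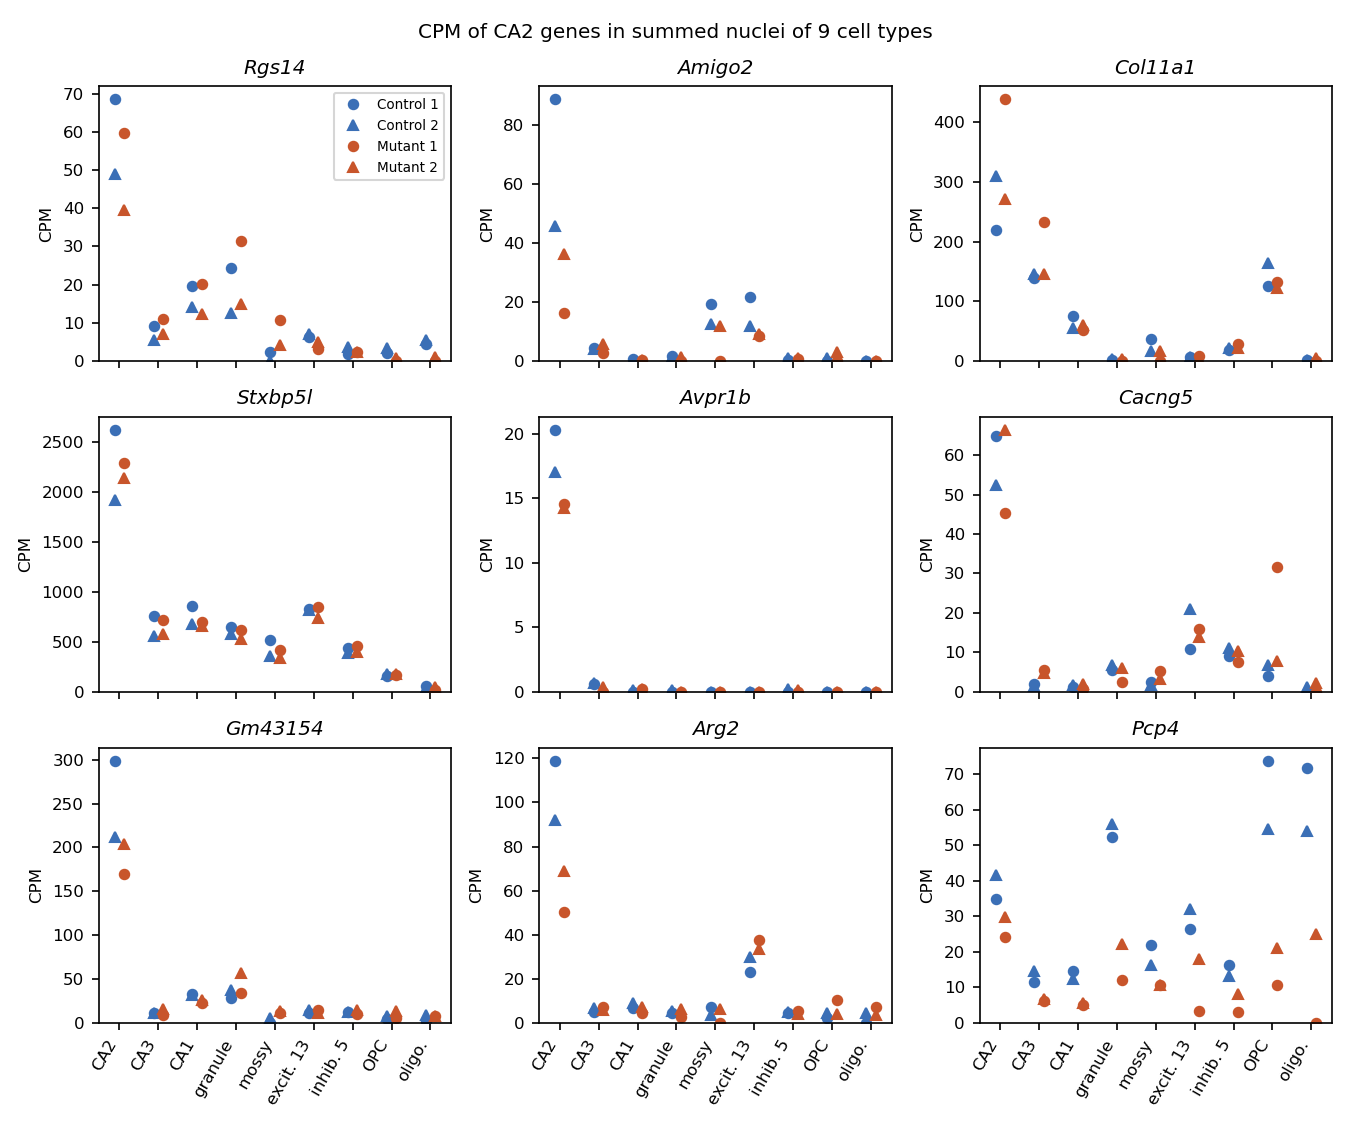
Level in CPM (vertical axis) of genes in the summed nuclei of selected cell types (horizontal axis), 1 point for each mouse, with blue for control, red for mutant, circles for replicate 1 and triangles for replicate 2. Avpr1b stood at 14.2 to 20.3 CPM in CA2 and near 0 in the other types, whereas Pcp4 in the controls was higher in precursors (OPC) and oligodendrocytes than in CA2.

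At the depth of single nuclei these markers were detected in part of the CA2 nuclei only. Amigo2 had a UMI in 15.4% and 35.5% of CA2 nuclei in the mutants and in 56.4% and 50.6% in the controls. With every nucleus thinned to 1500 UMIs the shares were 3.08% and 6.02% in the mutants (2 of 65 and 10 of 166 nuclei, exact 95% intervals 0.375 to 10.7% and 2.93 to 10.8%) and 7.92% and 4.82% in the controls (8 of 101 and 4 of 83 nuclei, 3.48 to 15.01% and 1.33 to 11.9%), which overlapped. In oligodendrocytes, with median depths of 1732, 1868, 1727 and 2339 UMIs, Amigo2 had no UMI in 73, 1112, 232 and 1029 nuclei, which, at 3 counts of the total, allows shares of nuclei with a UMI at that depth of up to 4.11%, 0.270%, 1.29% and 0.292%. Rgs14 had a UMI in 44.6% and 45.8% of CA2 nuclei in the mutants and 53.5% and 57.8% in the controls. Thinned, its shares were 9.23%, 7.83%, 8.91% and 8.43%, against at most 0.862% of thinned oligodendrocytes. Pcp4, thinned, had a UMI in 6.15% and 2.41% of CA2 nuclei in the mutants and 3.96% and 13.3% in the controls, and in 0% to 10.3% of oligodendrocytes, a level at which it did not mark CA2. Intervals cover counting error only.

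Genes that set CA2 apart were also ranked without a prior list, by the ratio of control CPM in CA2 to that of the highest other type, among genes of at least 50 CPM in CA2 of each control. Here every other type counted, also types of few nuclei. The leading gene was Gm43154, a long intergenic noncoding RNA (chr6:31605190-31798053), at 299 and 211 CPM in the controls and 170 and 204 CPM in the mutants, with a ratio of 7.77. Arg2, the mitochondrial arginase, followed with a ratio of 3.97 and stood at 119 and 92.1 CPM in the controls and 50.1 and 68.9 CPM in the mutants. Among the others were Cacng5, 1700024B05Rik, Pygo1, a nuclear partner of beta-catenin in Wnt signalling, Stxbp5l, Syndig1, a protein of excitatory synapses, Cdkl2, Igdcc3, Brinp2, Gm26776, Camta2, Zfp804a and Fam19a5, with ratios from 2.91 down to 1.94 after Cacng5. Gm26776 lies on the strand opposite to Ccdc3 and over the same span. All 15 genes were also higher in CA2 than in any other type of the mutants, with ratios from 1.42 to 4.13, and 7 were among the 15 highest when mutant nuclei were ranked in place of control nuclei. None of the 15 was called between genotypes in CA2 nuclei, with FDR from 0.437 to 0.992.

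CA3 was the type most like CA2 in every mouse, with Pearson's r over genes of log2 CPM of 0.893 and 0.897 in the mutants and 0.853 and 0.876 in the controls. CA1 came next. The genes are not independent and the libraries share their depth within a mouse, so r is given with no test. Of 3454 genes with at least 50 CPM in CA2 or in CA3 of both controls, 173 were over 2 times higher in CA2 than in CA3 in both controls and 169 were over 2 times lower. Of these, 97.7% and 99.4% lay on the same side in both mutants.

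Genes highest in CA2 relative to CA3 included Cacng5, Gm26522, Gm43154, Ntf3, Arg2, Gm11418, Angpt1, which encodes angiopoietin 1, Fhod3, Egfem1 and Adcy1, a calcium-stimulated adenylyl cyclase. Cacng5 was 32.9 and 34.6 times higher in CA2 in the controls and 8.31 and 14.0 times higher in the mutants. Its level in CA2 overlapped between genotypes, at 45.2 and 66.3 CPM in the mutants and 64.8 and 52.5 CPM in the controls, whereas in CA3 it was 5.44 and 4.75 CPM in the mutants and 1.97 and 1.52 CPM in the controls (FDR = 0.207 in CA3). Genes lowest in CA2 relative to CA3 were 4930467D21Rik, Galnt14, Car10, Sema5b, a semaphorin, Parp8, Tead1, Bicc1, Ntng2, Ephb1 and Cacng2, the AMPA receptor subunit stargazin. Car10, a carbonic anhydrase-related protein, was at 16.2 and 42.7 CPM in mutant and 13.5 and 26.6 CPM in control CA2 nuclei, against 411 and 435 CPM in mutant and 393 and 366 CPM in control CA3 nuclei. Of the 173 genes chosen in the controls, 107 passed 2 times in both mutants as well (61.9%), and of the 169 genes, 97 did (57.4%). Choosing by the same rule in the mutants gave 111 genes higher and 119 lower in CA2. The 91 genes chosen both ways were 52.6% of 173 and 82.0% of 111, and the 86 lower genes chosen both ways were 50.9% of 169 and 72.3% of 119.

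Between genotypes, 1 gene was called in CA2 nuclei. Of 10079 genes that passed the filter on low counts, Erbb4 was higher in the mutants past a fold change of 2 and an FDR of 0.05, which is 0.00992% of genes tested, and 0 genes were lower. At an unadjusted p below 0.05, 515 genes were higher and 402 were lower, 9.10% in all, and DESeq2 called 4 higher and 5 lower. In the same test CA3 and CA1 nuclei, with more nuclei, had 0 called genes, with 1876 of 15040 (12.5%) and 1678 of 16785 (10%) at an unadjusted p below 0.05, and were not run in DESeq2.

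Erbb4, the receptor for neuregulins that in hippocampus is known mainly from interneurons (chr1:68032186-69108059), was at 150.2 and 195 CPM in mutant replicates 1 and 2 and 40.6 and 27.3 CPM in control replicates 1 and 2. Both mutants stood above both controls, with a log2 fold change of 2.45 (SE 0.25, edgeR's quasi-likelihood test, FDR = 0.0152). Its UMIs were concentrated in few nuclei. In mutant replicate 1, 75 of 93 UMIs came from 1 nucleus, and in mutant replicate 2 the 2 highest nuclei held 164 and 97 of 452 UMIs, while no nucleus of the controls held more than 8 and 4 of their 42 and 40 UMIs. The share of CA2 nuclei with an Erbb4 UMI was 26.2% and 45.8% in the mutants and 20.8% and 34.9% in the controls, which overlapped. These shares are from nuclei at full depth, which differed between mice, and were higher in replicate 2 of both genotypes.

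The nuclei highest in Erbb4 also held transcripts of Gad1 and Gad2, which encode the enzymes that make GABA. At least 3 UMIs of Gad1 and Gad2 together were found in 1 and 3 CA2 nuclei of the mutants and 0 and 1 of the controls. Those 5 nuclei held 75 and 294 of the Erbb4 UMIs of the mutants and 0 and 1 of the controls, and their median depths of 16179 and 37242 UMIs in the mutants were above those of CA2 nuclei of the same mice. Without the 5 nuclei Erbb4 was at 29.8 and 71.1 CPM in the mutants and 40.6 and 27.2 CPM in the controls, the groups overlapped, and the log2 fold change was 0.78 (edgeR, FDR = 0.581), so that no gene was called higher. Gad1 and Gad2 had log2 fold changes of 1.53 and 1.55 in all CA2 nuclei (FDR = 0.531 and 0.466). Of the 10 inhibitory markers 4 were tested, all 4 higher in the mutants by sign and 3 without overlap, where 16.8% of all genes were. Of the markers not tested, Sst was lower in both mutants, at 6.46 and 3.02 CPM against 7.73 and 31.4 CPM in the controls. Npy, Vip, Pvalb, Slc32a1 and Lhx6 did not separate the genotypes. The removal of the 5 nuclei was added after the data had been seen.

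**Figure D2:**
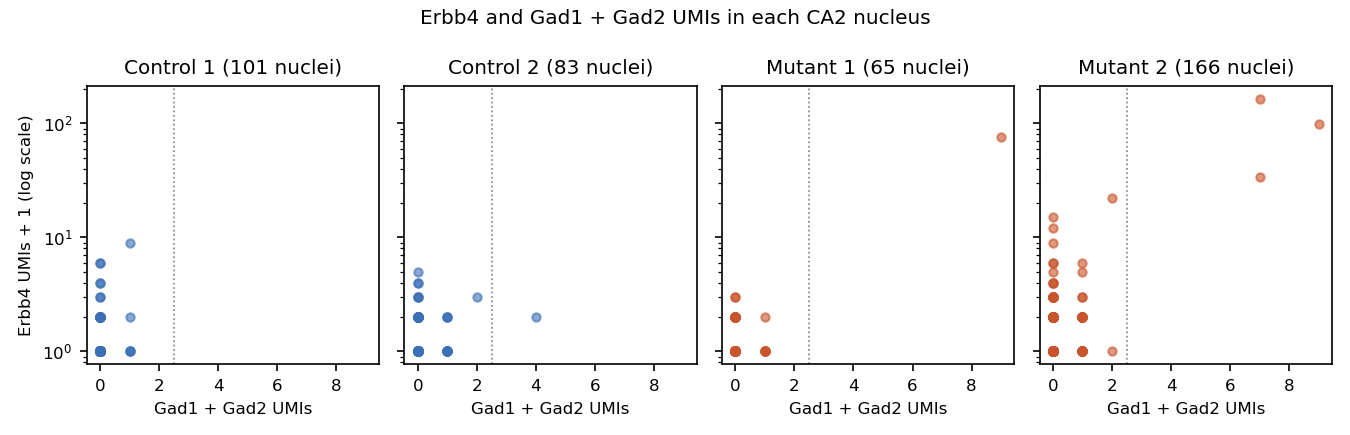
Erbb4 UMIs plus 1 (vertical axis, log scale) against Gad1 and Gad2 UMIs (horizontal axis) in each CA2 nucleus, 1 panel for each mouse, with a dotted line below 3 Gad UMIs. The highest Erbb4 points, 75 UMIs in mutant 1 and 164 and 97 UMIs in mutant 2, lie right of the line.

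None of the 16 CA2 transcripts was called in CA2 nuclei by edgeR on all 4 mice, with the low-count filter and no replicate block. All 16 were tested there. DESeq2 called none either, but it gave no FDR for 22452 of 24051 genes. Vit, Amigo2, Ntf3 and Rgs14 were among these, so it could not call them. Ccdc3, Necab2, Cacng5, Map3k15, Actn2, Pcp4, Fgf5, Avpr1b and Sostdc1 had lower mean CPM than Ntf3. DESeq2 leaves out genes below a mean count, so its lack of calls is no evidence on them. Both mutants were below both controls for 8 of the 16 and above them for 2, where 25.2% and 16.8% of all 10079 genes did so. The median log2 fold change was -0.11 over the 4 markers and -0.26 over the 12 further transcripts, beside -0.0024 over all genes tested.

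Among the membrane and matrix transcripts, Amigo2 (chr15:97244125-97247287) had the lowest value. It was at 16.2 and 36.2 CPM in the mutants, from 10 and 84 UMIs, and 88.9 and 45.7 CPM in the controls, from 92 and 67 UMIs. The groups did not overlap, and the log2 fold change was -1.12 (SE 0.38, FDR = 0.441). Amigo2 was called lower by edgeR with no filter (-1.15, FDR = 0.0191) and without control replicate 2 (-1.54, FDR = 0.000626). Vit, which encodes the matrix protein vitrin, was at 132 and 67.2 CPM in the mutants and 30.9 and 41.6 CPM in the controls. Both mutants were the higher, with a log2 fold change of 1.43 (SE 0.35, FDR = 0.351). Vit was called higher by edgeR with no filter on low counts (1.38, FDR = 0.000281) and without mutant replicate 2 (1.94, FDR = 0.0307), control replicate 1 (1.23, FDR = 0.0406) or control replicate 2 (1.66, FDR = 0.000617). Col11a1 (chr3:114030540-114220718) was at 439 and 272 CPM in the mutants and 220 and 310 CPM in the controls, which overlapped.

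Among the signalling transcripts, Rgs14 (chr13:55369732-55384687) was at 59.8 and 39.6 CPM in the mutants and 68.6 and 49.1 CPM in the controls, with a log2 fold change of -0.25 (SE 0.29, FDR = 0.840). Ptpn5, the striatal-enriched phosphatase, was at 181 and 246 CPM in the mutants and 278 and 205 CPM in the controls. Both genes overlapped between the genotypes. Avpr1b and Necab2, a neuronal calcium-binding protein, were lower in both mutants by log2 fold changes of -0.32 and -0.18 (FDR = 0.826 and 0.841).

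Of the secreted factors, Ntf3 was at 33.9 and 77.5 CPM in the mutants and 152 and 92.8 CPM in the controls, with a log2 fold change of -0.94 (SE 0.33, FDR = 0.466) and no overlap, and it was called lower by edgeR without control replicate 2 (-1.25, FDR = 0.0013). Fgf5, a fibroblast growth factor, was at 40.4 and 39.6 CPM in the mutants and 37.7 and 30.0 CPM in the controls, a difference of 0.31 on the log2 scale (FDR = 0.776). Stxbp5l (chr16:37114942-37384962), which acts at the release site, overlapped between the genotypes and had a log2 fold change of 0.03 (SE 0.18, FDR = 0.971).

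**Figure D3:**
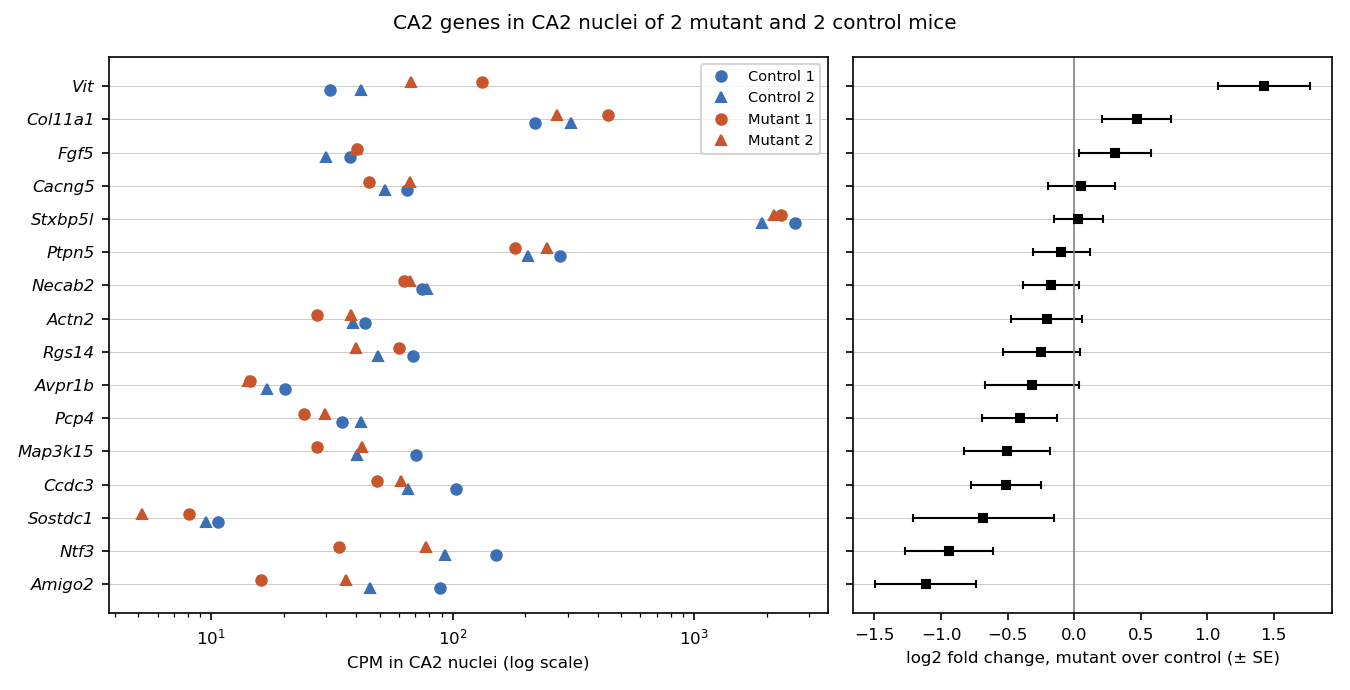
Left, level in CPM (log scale) of 16 CA2 transcripts in the CA2 nuclei of each mouse, and right, log2 fold change of mutant over control with its standard error. Estimates ran from -1.12 for Amigo2 to 1.43 for Vit. None passed an FDR of 0.05 in edgeR with all 4 mice, the filter on low counts and no replicate block.

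After Erbb4, the genes of lowest p were far from the threshold. Higher in the mutants were D430041D05Rik, Zfp804b, a zinc finger gene, the teneurins Tenm4 and Tenm2, which are adhesion receptors across the synapse, and Gm31698, a noncoding RNA, each with FDR = 0.279. Tenm2 was at 2594 and 2102 CPM in the mutants and 949 and 1356 CPM in the controls, a log2 fold change of 1.09 (SE 0.21). Tenm4 was at 1074 and 944 CPM in the mutants and 350 and 564 CPM in the controls, again with no overlap. Of the UMIs of Zfp804b, 32 of 40 in mutant replicate 1 came from 1 nucleus.

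Lower in the mutants, also each with FDR = 0.279, were Ubb, Matk, Cald1, Stxbp6 and Cck. Ubb, a polyubiquitin gene whose repeated sequence makes its count uncertain, was at 30.7 and 29.7 CPM in the mutants and 79.2 and 90.0 CPM in the controls. Cck, which encodes cholecystokinin, was at 103 and 84.0 CPM in the mutants and 187 and 263 CPM in the controls, a log2 fold change of -1.24 (SE 0.23). Matk, a tyrosine kinase, was at 200.3 and 169 CPM in the mutants and 380 and 387 CPM in the controls, and both genes had no overlap. Stxbp6, a SNARE regulator, was at 4.84 and 9.48 CPM in the mutants and 29.0 and 50.5 CPM in the controls. Stxbp6 and Cald1, which encodes caldesmon, were higher in DGC nuclei than in CA2 nuclei of the controls, at 970 and 842 CPM and at 259 and 239 CPM, beside the DGC marker sums above, and their part in these differences was not tested. Ubb and Cck had log2 fold changes of -1.53 and -1.45 in CA3 nuclei and -1.33 and -1.03 in CA1 nuclei as well (FDR = 0.0526 for both in CA3 and 0.421 for both in CA1). Trps1 and Cntnap5a, which the study names for excitatory nuclei, had log2 fold changes of -0.21 and -0.02 in CA2 nuclei (FDR = 0.787 and 0.988).

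Fold changes in CA2 nuclei moved with the length of the gene. The median log2 fold change was -0.31 over 695 genes that span under 5 kb in the annotation and 0.25 over 226 genes that span 500 kb or more, with the medians between them in order of span. Of the shortest genes 74.0% were lower in the mutants, and of the longest 19.0%. At an unadjusted p below 0.05, 52 of the 226 longest genes were higher and 7 lower. Of 691 genes that span 200 to 500 kb, 108 were higher and 19 lower, and of the 695 shortest, 13 and 82. The same medians ran from -0.21 to 0.28 in CA3 nuclei and from -0.13 to 0.17 in CA1 nuclei of the same mice. Among the genes named above, Ubb spans 2.0 kb and Cck 5.9 kb, while Tenm4, Erbb4 and Tenm2 span 739.8, 1075.9 and 1229.3 kb. Amigo2, the lowest of the 16 CA2 transcripts, spans 3.2 kb. Ribosomal protein transcripts, which come from short genes, summed to 1533 and 1696 CPM in mutant and 2026 and 1974 CPM in control CA2 nuclei. The part of gene length in any single difference, or in the counts for the lists of genes below, was not tested.

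**Figure D4:**
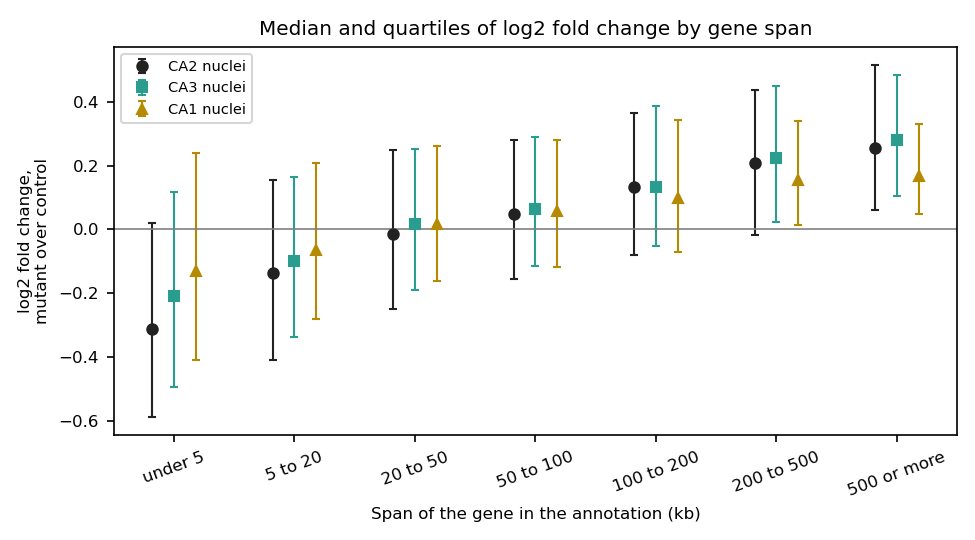
Median log2 fold change of mutant over control (vertical axis), with bars from the lower to the upper quartile of genes, by span of the gene in kb (horizontal axis) in CA2, CA3 and CA1 nuclei. In CA2 nuclei the median runs from -0.31 for genes under 5 kb to 0.25 for genes of 500 kb or more.

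Pathways were followed as fixed lists of genes, and outside Erbb4, a member of the list of growth factors and receptors, no member of any list was called in CA2 nuclei by edgeR (DESeq2 also called Kcnb2, a potassium channel gene, lower), beside 0.00992% of all genes tested. The growth factor list had 13 of its 20 genes tested. Nrg1, which encodes the Erbb4 ligand neuregulin 1, was at 279 and 259 CPM in the mutants and 83.1 and 174 CPM in the controls, a log2 fold change of 1.11 (FDR = 0.372). Nrg3, the most abundant neuregulin here in UMIs, overlapped at 5908 and 4939 CPM in the mutants and 6454 and 4886 CPM in the controls.

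Of the genes for Wnt secretion and ligands, 5 of 21 passed the filter, and 3 were higher and 2 lower by sign. The most abundant, Porcn, the acyltransferase that modifies Wnts, was at 90.4 and 77.5 CPM in the mutants and 95.7 and 74.3 CPM in the controls. Of 45 Wnt receptors, effectors and antagonists 18 were tested, 9 of them higher and 9 lower by sign, with a median log2 fold change of -0.04 and an FDR of at least 0.585. Apc, a scaffold of the beta-catenin destruction complex, was at 203 and 233 CPM in the mutants and 198 and 212 CPM in the controls. These values overlapped between the genotypes.

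Of 34 genes for glutamate receptors and AMPA receptor partners, 28 were tested and 5 were higher and 1 lower at an unadjusted p below 0.05, where 5.11% and 3.99% of all genes were. Gria1, an AMPA receptor subunit, was at 3012 and 3503 CPM in the mutants and 3060 and 2928 CPM in the controls, which overlapped. Of 33 genes of the mossy fibre synapse and adhesion, 32 were tested, 4 higher and 3 lower at that p. Grik4, a kainate receptor subunit of mossy fibre synapses that is in both lists, was at 667 and 829 CPM in the mutants and 369 and 560 CPM in the controls, a log2 fold change of 0.75 (SE 0.21, FDR = 0.415). Nectin1, an adhesion protein of mossy fibre contacts, was at 75.9 and 87.0 CPM in the mutants and 34.8 and 49.8 CPM in the controls, a log2 fold change of 1.00 (FDR = 0.351). Of 14 GABA receptor genes, 12 were tested, with 2 higher and 1 lower at that p.

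Among 37 potassium and HCN channel genes 32 were tested, with 5 higher and 2 lower at an unadjusted p below 0.05. Of all genes 5.11% were higher and 3.99% lower at that p. Kcnip4, an auxiliary subunit of A-type channels and the most abundant member in UMIs, was at 7111 and 7246 CPM in the mutants and 9027 and 7488 CPM in the controls, with a log2 fold change of -0.14 (FDR = 0.837) and no overlap. Kcnb2, a delayed rectifier, was at 195 and 411 CPM in the mutants and 670 and 627 CPM in the controls, a log2 fold change of -1.01 (SE 0.27, FDR = 0.384). Kcnq5, an M-current channel, was at 4811 and 3429 CPM in the mutants and 3091 and 2661 CPM in the controls, a log2 fold change of 0.59 (FDR = 0.437). Of 32 genes for calcium handling and plasticity 27 were tested, 3 higher and 0 lower at that p. Camk2a, the kinase subunit of synaptic plasticity, was at 1292 and 1514 CPM in the mutants and 1496 and 1557 CPM in the controls.

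Of 32 neuropeptide, steroid and amine receptors, 13 were tested, 2 higher and 1 lower at an unadjusted p below 0.05. Of all genes 5.11% were higher and 3.99% lower at that p. Chrm3, a muscarinic receptor, was at 273 and 405 CPM in the mutants and 700 and 561 CPM in the controls, a log2 fold change of -0.82 (SE 0.21, FDR = 0.353). Htr2c, a serotonin receptor that is also a choroid plexus marker, was at 50.1 and 45.2 CPM in the mutants and 7.73 and 20.5 CPM in the controls, a log2 fold change of 1.72 (SE 0.39, FDR = 0.351), beside the choroid plexus sums above, and their part was not tested. Of 12 perineuronal net genes, a matrix that surrounds CA2 cells, 8 were tested, 2 higher and 6 lower by sign, and Vcan (versican) had a log2 fold change of -0.91 (FDR = 0.437). Immediate early genes, which report recent activity, had 8 of 15 members tested, 3 higher and 5 lower by sign, where 50.3% of all genes were lower, with a median log2 fold change of -0.13. In CA3 nuclei 14 of the 15 were tested and all 14 were lower by sign, where 49% of all genes were, with a median of -0.57 and none called, and the difference between CA2 and CA3 over this list was not tested. Mitochondrially encoded transcripts had 8 of 13 tested, 4 higher and 4 lower. The genes named in this paragraph and the 3 before it by their fold changes, other than the most abundant member of each list, were chosen after their values were seen.

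Whether the genotype difference in CA2 differed from that in CA3 or CA1 was tested directly, with the mouse as a block. Against CA3, 16 of 13058 genes were called (0.123%), 5 with the more positive difference in CA2 and 11 with the more negative. Against CA1, 16 of 15182 were called (0.105%), also 5 and 11. Both tests use the same CA2 nuclei, so the results are not independent. With no term for the mouse no gene was called in either (319 and 391 genes at an unadjusted p below 0.05, against 836 and 857, or 6.4% and 5.64%, with it), and DESeq2 called 7 and 3.

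Trpm3, a cation channel, was at 184 and 424 CPM in mutant and 720.0 and 625 CPM in control CA2 nuclei. In CA3 it went the other way, at 273 and 352 CPM in the mutants and 189 and 217 CPM in the controls, and the genotype differences differed by -1.77 on the log2 scale (SE 0.19, FDR = 3.35e-05). In CA1 Trpm3 was at 93.8 and 134 CPM in the mutants and 105 and 93.1 CPM in the controls, and the difference from CA2 was -1.36 (SE 0.18, FDR = 0.000464). The mutants were below the controls in CA2 without overlap, but in CA2 alone Trpm3 did not pass (log2 fold change -1.05, FDR = 0.415). Trpm3 was at 1596 and 1402 CPM in DGC nuclei of the controls, and the part of DGC transcripts was not tested.

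Against CA3 the other genes of lowest p were Erbb4, with a difference of 2.01 (FDR = 2.43e-05), and Btk, a tyrosine kinase, with -2.29 (FDR = 0.00186). Btk was at 30.7 and 32.7 CPM in mutant and 26.1 and 82.5 CPM in control CA2 nuclei, which overlapped, and at 13.3 and 11.5 CPM in mutant and 2.75 and 5.74 CPM in control CA3 nuclei, which did not. Without the 5 CA2 nuclei with at least 3 Gad1 and Gad2 UMIs the difference for Erbb4 was 0.39 (FDR = 0.863), with all CA3 nuclei kept. Against CA1 they were the noncoding RNAs AC121788.1, with 1.27 (FDR = 0.000464), and 4921539H07Rik, with 1.40 (FDR = 0.000695). 4921539H07Rik (chr3:58117053-58167616) was at 103 and 206 CPM in mutant and 101 and 113 CPM in control CA2 nuclei, and at 150.1 and 271 CPM in mutant and 441 and 339 CPM in control CA1 nuclei. It overlaps 1700007F19Rik on the opposite strand. The gap in level between CA2 and CA3 was smaller in both mutants than in both controls for 9 of the 16 genes called against CA3 and larger for 5, where 19.8% and 15.1% of all genes tested were, and these counts use the values that made the calls.

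**Figure D5:**
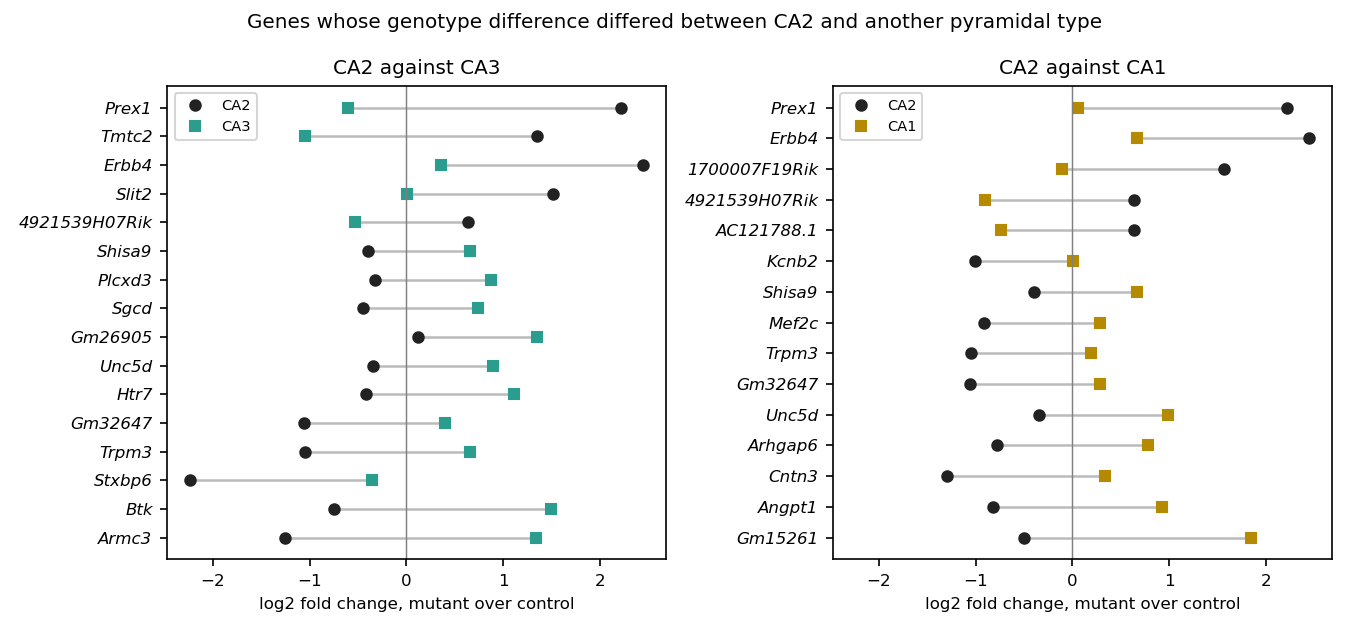
Log2 fold change of mutant over control (horizontal axis) in CA2 nuclei (black circles) and in CA3 or CA1 nuclei (squares) for genes called in each test of the difference, ordered by that difference. In the left panel Trpm3 lies at -1.05 in CA2 and 0.65 in CA3, and Erbb4 at 2.45 and 0.36; Sst, called against CA1, is not drawn because it was not tested in CA2 alone.

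In bulk RNAseq the 16 CA2 transcripts were read in whole hippocampus, where fewer cells of a type and less RNA per cell cannot be told apart, and where other types contribute. In the bulk libraries labelled replicate 2 of both genotypes, Xist was at 230.0 and 521 CPM and the Y-linked gene Ddx3y at 0.352 and 0.345 CPM, against 1.42 and 1.05 CPM for Xist and 53.6 and 58.7 CPM for Ddx3y in replicate 1, which goes against the male label. Each genotype holds 1 library of each kind. CA2 nuclei had 0, 3, 2 and 0 Xist UMIs. Bulk libraries held 56002381 to 79576196 expected counts, and Wls was at 3.61 and 6.86 CPM in the mutants and 13.3 and 13.1 CPM in the controls.

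All 16 transcripts were tested in bulk and 0 were called at a fold change above 3, by edgeR and by DESeq2, beside 0.218% of 20687 genes. At an unadjusted p below 0.05 were 3 of the 4 markers and 7 of the 12 further transcripts, where 18.8% of all genes were. The mutants were above the controls without overlap for 8 and below them for 4, where 22.4% and 28.3% of all genes were. Such rises were not particular to CA2, as CA1 and inhibitory markers rose too, but mossy cell markers did not. By sign 9 of 9 CA1, 9 of 10 inhibitory, 6 of 9 CA3 and 2 of 8 mossy cell markers tested were higher in the mutants. Their median log2 fold changes were 0.64, 0.30, 0.011 and -0.31 in that order, beside 0.011 over all genes tested in bulk. All 10 DGC markers were lower. The paper describes a small relative rise in bulk of all other cell types as DGCs are lost, and its part here was not tested. Col11a1 was at 105 and 115 CPM in the mutants and 68.3 and 63.6 CPM in the controls, a log2 fold change of 0.76 (SE 0.06, FDR = 0.0216). Ntf3, which DGCs also express in the nuclei (73.4 CPM in controls), was at 2.59 and 2.71 CPM in the mutants and 8.16 and 7.41 CPM in the controls, a log2 fold change of -1.53 (SE 0.14, FDR = 0.0244). With the replicate number as a block, which in bulk goes with the split in Xist and Ddx3y, the FDR was 0.0516 for Col11a1 and 0.0602 for Ntf3, with log2 fold changes of 0.76 and -1.53. Ntf3 was thus lower in both mutants in bulk and in CA2 nuclei, and Col11a1 higher in bulk but overlapping in CA2 nuclei. Amigo2 was higher in both mutants in bulk, at 28.7 and 31.7 CPM against 26.5 and 22.9 CPM in the controls (log2 fold change 0.31, FDR = 0.207), and lower in both in CA2 nuclei. Rgs14 was at 99.2 and 114 CPM in the mutants and 85.0 and 89.2 CPM in the controls (log2 fold change 0.32, FDR = 0.124). Erbb4 overlapped in bulk, at 60.2 and 62.5 CPM against 49.7 and 61.8 CPM (FDR = 0.494). Sostdc1 was at 5.82 and 45.6 CPM in the mutants and 2.98 and 2.83 CPM in the controls, a value set by mutant replicate 2. In mutant nuclei Sostdc1 averaged 50.1 CPM in the type labelled CP, highest of all types, and 6.62 CPM in CA2, and CP nuclei numbered 0 and 184 in the mutants and 9 and 0 in the controls.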

How the data were processed

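Nuclei of the authors' type CA2 were compared between 2 mutant and 2 control mice, assigned from the labels. The authors processed snRNAseq reads in Cell Ranger 3.1.0, with an index of mm10 that includes introns, and deposited raw UMI counts per gene and nucleus. They batch-corrected and clustered the nuclei in Monocle 3 and deposited the annotation, which was used as given. For bulk RNAseq the authors deposited expected counts from RSEM 1.3.0 and Bowtie2 2.2.9 (mm10), which were rounded to whole numbers here. Counts from introns are included in nuclei, so long genes gather more UMIs. No doublets were removed here.

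UMIs were summed per mouse and type and compared in edgeR 4.0.16 (R 4.3.3) with the quasi-likelihood test, filterByExpr, TMM scaling and Benjamini-Hochberg adjustment. Calls needed FDR below 0.05 and a fold change above 2, or above 3 in bulk. Standard errors were taken as the absolute log2 fold change divided by the square root of the F statistic. Numbers of nuclei were tested with the total nuclei as library size, and differences between types with the mouse as a block. Thinned shares used 1500 UMIs and a fixed seed. Gene positions come from gencode vM21 (GRCm38). Each test was checked on simulated counts. The labels number the replicates but do not say that same-numbered mice form a pair, and p-values measure the spread between 2 mice a group.

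Alternatives were DESeq2 1.42.0, RLE scaling, no filter, glmTreat at 1.2-fold, a replicate block, other totals and selections of nuclei, a pseudocount of 5 CPM and each mouse left out. Named were the 16 CA2 transcripts, Wls, the genes the study names for excitatory nuclei, called genes, the 5 lowest p in each direction, the 15 highest in CA2, the 10 highest and 10 lowest against CA3, list members of highest CPM and the 3 lowest p of each test of differences; some genes these rules select are not reported here. CA2 members, lists and comparisons were chosen with earlier results of these data known. Python 3.11.15, numpy 2.4.6, pandas 2.3.3 and scipy 1.17.1 were also used.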

Additional observations from a re-analysis of the deposited data

Results flagged for a closer look

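The genotype difference in CA2 nuclei differed from that in another pyramidal type, by a test of the difference itself in edgeR with the mouse as a block, for 16 genes against CA3 and 16 against CA1. Values are differences of log2 fold changes, CA2 minus the other type, and a positive value means a higher mutant over control ratio in CA2. Against CA3 the positive values were 2.01 for Erbb4, 2.38 for Tmtc2, 2.84 for Prex1, 1.34 for Slit2 and 1.14 for 4921539H07Rik. The negative values were -1.77 for Trpm3, -2.29 for Btk, -1.31 for Unc5d, -1.26 for Sgcd, -1.22 for Plcxd3, -1.50 for Gm32647, -1.49 for Htr7, -1.11 for Shisa9, -1.89 for Stxbp6, -1.29 for Gm26905 and -2.55 for Armc3.

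Against CA1 the positive values were 1.71 for Erbb4, 1.27 for AC121788.1, 1.40 for 4921539H07Rik, 1.55 for 1700007F19Rik and 2.09 for Prex1. The negative values were -1.36 for Trpm3, -1.47 for Unc5d, -1.58 for Cntn3, -1.49 for Arhgap6, -2.86 for Sst, -1.11 for Kcnb2, -1.11 for Shisa9, -2.37 for Gm15261, -1.16 for Mef2c, -1.38 for Gm32647 and -1.60 for Angpt1. Gm15261 lies within Arhgap6 on the opposite strand. Of the 46 Sst UMIs in CA2 nuclei of control replicate 2, 37 came from 1 nucleus. Prex1 rested on 6, 52, 2 and 8 UMIs in CA2 nuclei of mutant replicates 1 and 2 and control replicates 1 and 2. The 5 CA2 nuclei with at least 3 Gad1 and Gad2 UMIs were then left out, with all CA3 and CA1 nuclei kept. Erbb4 and Tmtc2 were no longer called against CA3, and Erbb4, Prex1 and Sst were no longer called against CA1. A selected type was thus set against types without that selection. Of these genes, edgeR called Erbb4 in CA2 nuclei alone, and DESeq2 called Erbb4, Cntn3 and Kcnb2.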

How the results depend on the processing

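With a replicate block 73 genes were higher and 63 lower in CA2 nuclei. Same-numbered snRNAseq mice have neighbouring codes in their titles, but the labels do not say whether they were handled together. The median depth of CA2 nuclei was higher in replicate 2 of both genotypes. The correlation of same-numbered deviations was 0.176, and whether the number marks a batch was not tested. In bulk, where it was 0.061 and the number also goes with the split in Xist, the FDR of Col11a1 and Ntf3 with the block was 0.0516 and 0.0602. DESeq2 called 4 higher and 5 lower, and no filter 46 and 41. No gene was called higher (0) without the tenth of nuclei richest in other classes' markers, with nuclei thinned to 3000 UMIs, or without the nuclei with Gad UMIs. Erbb4 had log2 fold changes of 1.14, 1.84 and 0.78 there. The last selection was chosen after seeing the data. Nuclei with Gad UMIs means the 5 CA2 nuclei with at least 3 UMIs of Gad1 and Gad2, and those of CA3 and CA1 were kept. Leaving out a mouse gave 1 to 165 higher and 0 to 53 lower, namely 1 and 0 without mutant replicate 1, 5 and 5 without mutant replicate 2, 13 and 25 without control replicate 1 and 165 and 53 without control replicate 2, and Erbb4 was called in all 4, where a mouse left alone was assumed to vary like the other group and the nuclei with Gad UMIs of the remaining mice were kept. The differences from CA3 and CA1 gave 0 and 0 calls with no mouse term, 7 and 3 in DESeq2, 57 and 48 with no filter, 22 to 49 and 27 to 114 without 1 mouse, and 31 against CA3 without the nuclei with Gad UMIs. Of the 16 calls against CA3, 7 to 15 were kept without 1 mouse (7 without mutant replicate 2, 9 without control replicate 1), and of those against CA1 11 to 14. The number of CA2 nuclei reversed to -0.47 without DGC nuclei in the total, -0.39 among CA1, CA2 and CA3 nuclei and -0.15 among CA2 and CA3 nuclei, with a range of -0.15 to 0.29 without 1 mouse. Of the 15 genes highest in CA2, 7 were among the 15 highest in mutant nuclei.

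Signs of small differences turned. Thinned to 3000 UMIs, Rgs14 was 0.19, and Stxbp5l was -0.0064 in DESeq2 and -0.013 with no filter. Without the tenth of nuclei Cntnap5a was 0.47. Without 1 mouse the ranges were -0.54 to 0.13 for Rgs14, -0.18 to 0.27 for Stxbp5l, -0.28 to 0.21 for Cacng5, -0.32 to 0.14 for Ptpn5, -0.32 to 0.43 for Cntnap5a and -0.042 to 0.24 for Ptpn5 in bulk. In bulk 1 of the 16 transcripts was called with no filter and 1 without mutant replicate 1, and without 1 mouse bulk calls ran from 0 higher and 0 lower (without either control) to 248 and 147 (without mutant replicate 1). The causes were not tested. Among the 16 transcripts, Vit was also called with the replicate block (1.36). With 65 CA2 nuclei in mutant replicate 1, low genes rested on few UMIs.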

Other observations

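DESeq2 called 9 genes in CA2 nuclei, of which only Erbb4 passed in edgeR. Of them, Epha7, an ephrin receptor that guides axons, was at 187 and 214 CPM in the mutants and 544 and 368 CPM in the controls, with a log2 fold change in edgeR of -1.11 (SE 0.21, FDR = 0.290). Cntn3, a contactin of the neuronal surface, was at 33.9 and 94.4 CPM in the mutants and 188 and 173 CPM in the controls, with -1.30 (SE 0.32, FDR = 0.351). Both mutants were below both controls for Epha7 and Cntn3. The others were Tenm4, Tenm2 and D430041D05Rik, higher in the mutants, and Matk, Cck and Kcnb2, lower.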
